A study of Homo sapiens with 42 samples.

Results

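The genes described here act in DNA repair and in the checkpoints that hold the cell cycle when DNA is damaged. They were chosen by name, with earlier results of these data known, as 34 listed genes. Of these, 31 were measured, among 19775 genes on the arrays. Each gene was read on 1 probe set, the brightest over the 42 arrays among those listed for that gene alone. BRCA2, FANCA and FANCD2 were not analysed here, because the annotation used gave no probe set of their own. The measured members comprised 12 genes of homologous recombination, 6 of the Fanconi anemia pathway, 5 of mismatch and base repair, 2 of end joining and 6 of checkpoint signalling. Each was put in 1 group only, though these pathways share genes, so medians and rankings of groups depend on that assignment.

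Homologous recombination copies an intact sister strand to mend a broken one, and cells use it mainly once DNA has been replicated. Fanconi proteins unhook crosslinks between the strands and hand the break to recombination, mismatch and base repair remove wrong or altered bases, and end joining seals broken ends without a template. ATM and ATR are the kinases that sense breaks and stalled forks, and CHEK2 and CHEK1 carry their signal to the cell cycle. Many of these genes are transcribed most strongly as cells enter and pass through DNA replication, under E2F factors, so their RNA tends to follow the share of cycling cells.

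Promoters of some members that moved widely are shown because E2F factors bind words of the kind TTTGGCGC, TTTCCCGC, TTTGCCGC or TTTCGCGC. Sequences are from RefSeq on GRCh38.p14, read on the gene's own strand, and 31 of the 34 listed genes had at least 1 promoter window there, of 250 bases before to 50 bases after a transcription start. Across these windows, in 10 of the 31 genes (32.3%) a window held 1 of the 4 words on either strand, against 3.99% of the 27305 genes with a window and 3.31% of all 35116 windows. The 10 genes are XRCC2, RMI1, FANCA, FANCC, FANCD2, MSH6, EXO1, UNG, TOPBP1 and CLSPN. Below, the word is in capitals in 4 promoters, at chr2:47783056-47783155 (plus strand) for MSH6, chr1:241848116-241848215 (plus) for EXO1, chr12:109098063-109098162 (plus) for UNG and chr1:35769976-35770075 (minus) for CLSPN.
MSH6: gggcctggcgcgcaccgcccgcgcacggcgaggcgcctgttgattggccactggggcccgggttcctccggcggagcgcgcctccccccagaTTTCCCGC
EXO1: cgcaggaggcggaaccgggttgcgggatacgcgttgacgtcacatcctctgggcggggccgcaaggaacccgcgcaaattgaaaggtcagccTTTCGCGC
UNG: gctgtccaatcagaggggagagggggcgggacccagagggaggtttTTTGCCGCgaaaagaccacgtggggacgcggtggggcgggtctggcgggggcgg
CLSPN: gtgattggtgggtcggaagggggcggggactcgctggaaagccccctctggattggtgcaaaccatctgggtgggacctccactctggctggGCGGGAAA

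The windows of BRCA1, BRIP1 and FANCL, the 3 largest rises in SCC61 cells, held none of the 4 words. Shown here are 100 bases next to 1 start of each gene, at chr17:43125365-43125464 for BRCA1, chr17:61863529-61863628 for BRIP1 and chr2:58241326-58241425 for FANCL, all on the minus strand. Capitals mark the CCAAT box on either strand (CCAAT or ATTGG), the word bound by the factor NF-Y. It stood in a window of 18 of the 31 genes (58.1%), against 39.7% of all genes, and the 100 bases of BRIP1 shown here hold 2 copies.
BRCA1: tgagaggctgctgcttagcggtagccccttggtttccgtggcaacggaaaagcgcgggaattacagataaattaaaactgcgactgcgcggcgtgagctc
BRIP1: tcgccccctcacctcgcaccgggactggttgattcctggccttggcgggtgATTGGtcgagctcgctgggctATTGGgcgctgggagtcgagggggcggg
FANCL: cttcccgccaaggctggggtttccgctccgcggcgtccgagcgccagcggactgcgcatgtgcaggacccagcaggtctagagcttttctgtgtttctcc

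The printed promoters were picked among members with large changes and with their words known, so nothing follows from which of them hold a word. MSH6, EXO1, UNG and CLSPN are printed as genes with an E2F-type word. Other members with large changes are not printed, among them RMI1, which has such a word, and FANCG and ATM, which have none. A word in a promoter is a match of letters and not evidence of binding. Of the measured members with a window, 8 held an E2F-type word and 20 did not. Their median log2 changes with cetuximab were -0.39 with the word and -0.29 without it in SCC25, -0.36 and -0.19 in SQ20B, 0.66 and 0.85 in SCC61, 0.48 and 0.33 in SCC047, -0.06 and -0.06 in SCC090, and 0.20 and 0.14 in 93VU147T. The ranges of both sets overlapped in every line.

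Head and neck squamous carcinoma lines received 100 nM cetuximab, an antibody that blocks the EGF receptor, for 24 h. Their controls are called untreated throughout. The labels say only control, and the text of the study names PBS as the control of these lines and also calls such cells untreated. Paired conditions were available for the HPV-negative lines SCC25, SQ20B and SCC61 and the HPV-positive lines SCC047, SCC090 and 93VU147T, with 3 arrays per condition. HPV status comes from the text of the study and not from the sample labels. SCC1 cells had only cetuximab arrays, and HaCaT, an immortalised keratinocyte line outside the carcinomas, had only untreated arrays. Each line is a single established culture, and nothing in the labels says that the 3 arrays came from separate cultures, so a p-value within a line reflects only how much these arrays scatter, perhaps for technical reasons.

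Values are log2 signals, so a difference of 1 is a factor of 2. Array medians ran between 5.09 and 5.16. The receptor's output genes gave a check of the treatment: DUSP6, a phosphatase induced by ERK, fell in all 6 lines (log2 changes -0.72 to -4.56). EGR1, an early growth response factor, fell in 5 lines (-1.05 to -5.06) and had -0.64 in SCC090 (adjusted p = 0.28). Of the 4 output genes checked, all 4 fell in SCC25, SQ20B, SCC61 and 93VU147T, 3 fell in SCC047, where FOSL1 had 0.33 (adjusted p = 0.095), and 2 fell in SCC090. CDKN2A, which HPV-positive cells express strongly, averaged 10.9 to 12.1 in untreated HPV-positive lines and 5.88 to 9.95 in untreated HPV-negative lines. Mean signal over the 6 epithelial markers measured was 10.3 to 12.1 in every condition, while that over 6 leukocyte markers was 4.74 to 5.78 and over 6 endothelial markers 4.87 to 5.28. The mean over 9 fibroblast markers was 4.84 to 6.48, highest in SCC25, where the matrix gene LUM reached 9.34 with cetuximab and 7.54 without it. Markers moved too. Of 9 fibroblast markers 4 rose in SCC25 (LUM by 1.80), and in SQ20B 2 rose (COL1A1 by 1.83) and 1 fell. In SCC61 3 rose and 1 fell, and 2 fell in each of SCC047 and 93VU147T. In SCC61 3 of 6 leukocyte markers fell, LAPTM5 by 1.28, and LAPTM5 also fell in the other lines except SCC090 (-0.42 to -0.79), while ITGAM fell only in SQ20B (-0.38). The leukocyte marker CD14 rose in SCC25 (0.64). Of the endothelial markers PECAM1 fell in SCC61 (-0.45) and VWF in SCC047 (-0.52) and 93VU147T (-0.34), and of the epithelial ones KRT5 rose in SQ20B (0.52), SCC090 (1.04) and 93VU147T (0.67) and DSP in SQ20B (0.58), SCC047 (0.54) and 93VU147T (0.87). Other epithelial markers went down, 1 of 6 in SCC25 and 2 in SQ20B, with KRT18 the lowest in both (-0.43 and -0.58). The defining leukocyte marker PTPRC averaged 3.87 to 4.30 and the endothelial CDH5 3.63 to 4.07. The part of these markers in the members' changes was not tested. The arrays fell into 3 scan batches, and among the paired conditions only 1 SQ20B control array lay outside the main one. ACTB 3′ minus 5′ signal, a measure of RNA integrity, was higher with cetuximab without overlap in SCC25, SQ20B and SCC047 (by 0.07, 0.29 and 0.11 log2 units, two-sided exact permutation p = 0.1 each, the smallest that 3 against 3 arrays allow), and its part in the results of those lines was not tested. The same measure on GAPDH was higher without overlap in SQ20B and SCC047 (by 0.07 and 0.04, permutation p = 0.1 each). In SCC25 the GAPDH values overlapped (0.003, permutation p = 0.9).

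The direction of the members split the lines. In SCC61 cells 29 of 31 members rose with cetuximab and 0 fell, while 24.4% of all genes rose and 19.8% fell. In SCC047 cells 21 rose and 3 fell, against 17.3% and 19% of all genes, and in 93VU147T cells 13 rose and 4 fell, against 15.8% and 18.8%. SCC25 cells went the other way, with 0 members higher and 15 lower (8.66% and 7.3% of all genes). SQ20B cells had 2 higher and 12 lower (18.4% and 14.9%). SCC090 cells had 0 of 31 called in either direction, where 0.516% of all genes rose and 0.885% fell. All of these counts are at an adjusted p under 0.05 in limma with Benjamini-Hochberg adjustment over all genes.

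**Figure D1:**
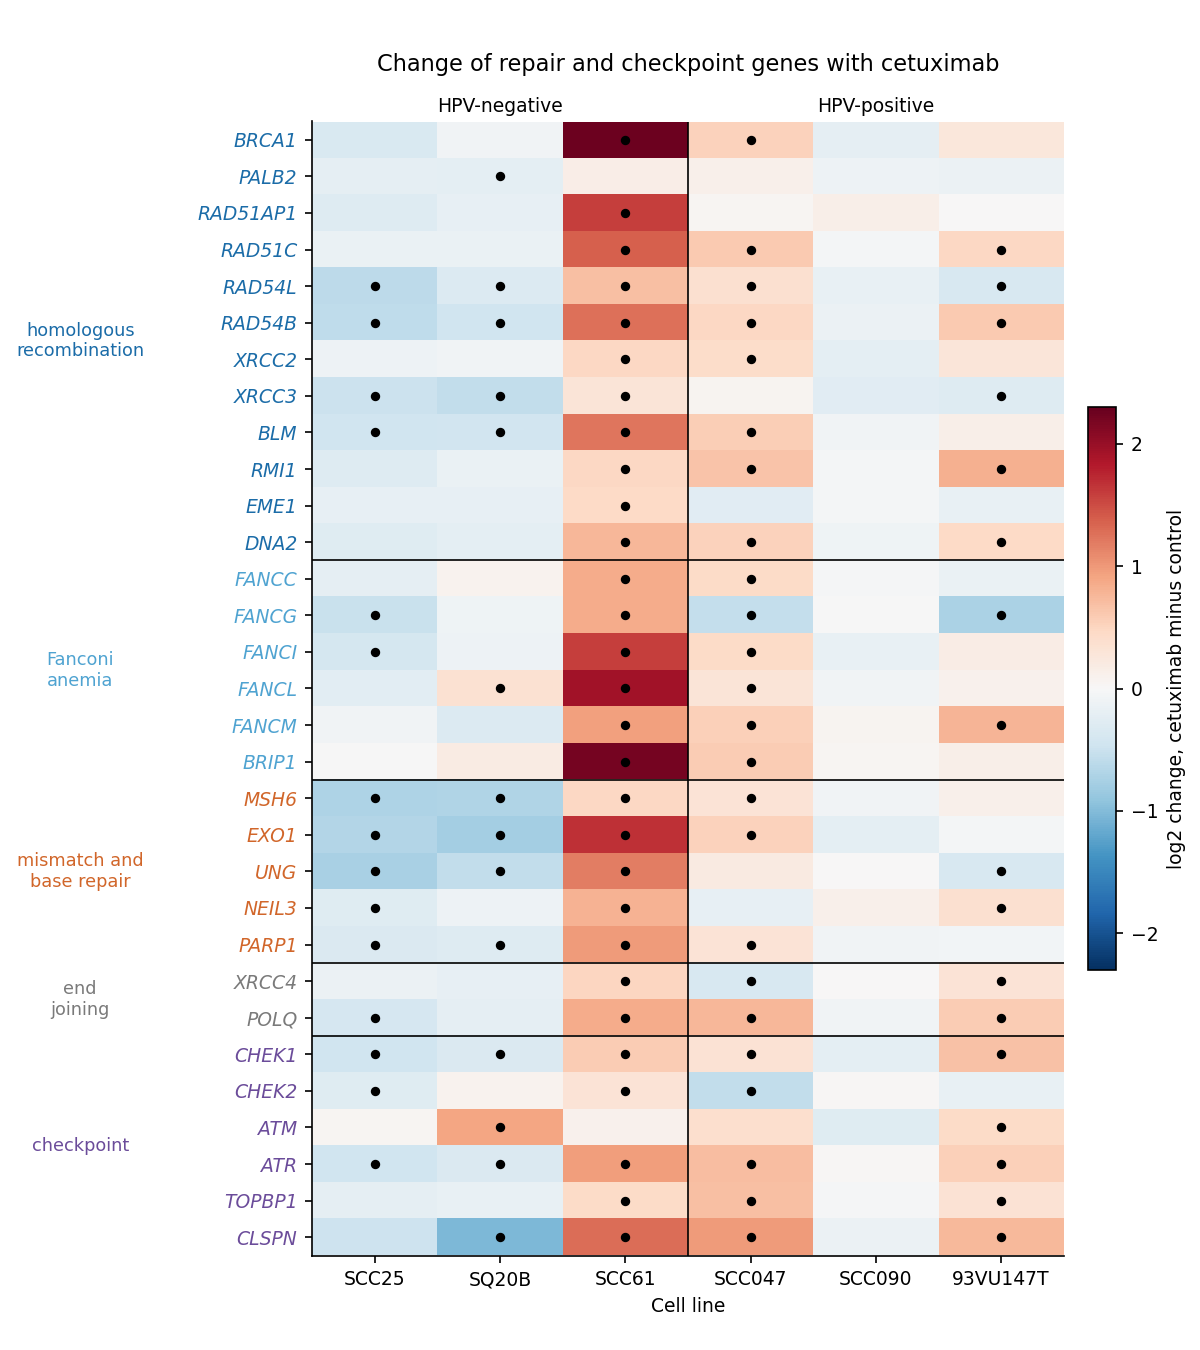
Log2 change with cetuximab for the 31 measured members (rows, grouped by function) in 6 lines (columns), with a black dot where the adjusted p is under 0.05. The SCC61 column holds 29 dots, all on rises, and the SCC25 column 15, all on falls.

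The median member change was 0.85 in SCC61, 0.42 in SCC047, 0.18 in 93VU147T, -0.07 in SCC090, -0.20 in SQ20B and -0.30 in SCC25. Medians over all genes lay between -0.04 and 0.00 in the same lines. In SCC090, 4 members reached an unadjusted p under 0.05 and the smallest adjusted p of a member was 0.21. The changes of 0 members had 1 direction in all 6 lines, as those of 7.82% of all genes did.

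Averaged over the lines, each counted once, 0 members and 0% of all genes passed. Among the members 0, and over all genes 2404, had an unadjusted p under 0.05, and the smallest adjusted p of a member was 0.47. The 3 largest mean rises were those of BRIP1 (0.53 ± 0.29, SE over 6 lines), BRCA1 (0.40 ± 0.33) and FANCL (0.39 ± 0.27), and the 3 largest mean falls those of XRCC3 (-0.20 ± 0.12), FANCG (-0.18 ± 0.20) and CHEK2 (-0.10 ± 0.11). Without SCC61 the first 3 means were 0.19 for BRIP1, 0.03 for BRCA1 and 0.08 for FANCL. For the falls, leaving out 1 line gave -0.13 (without SQ20B) to -0.30 (without SCC61) for XRCC3, -0.07 (without 93VU147T) to -0.38 (without SCC61) for FANCG and -0.01 (without SCC047) to -0.19 (without SCC61) for CHEK2. With the array as the unit, which treats arrays of 1 line as independent, 19 members were called higher and 4 lower, against 22.8% and 23.1% of all genes. The median of the members' mean changes was 0.16, and without SCC61 it was -0.01, with 14 members above 0 and 17 below.

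Among the recombination genes, BRCA1, which acts early in the repair of broken ends, had the largest change of any member. In SCC61 cells it had 8.09, 8.26 and 8.15 on the cetuximab arrays and 5.68, 5.90 and 6.15 on the control arrays. All treated arrays lay far above all controls, and the rise was 4.77-fold (log2 change 2.25 ± 0.16, the second value being the SE here and below; limma adjusted p = 1.8e-13). BRCA1 also rose in SCC047 cells (0.53 ± 0.16, adjusted p = 0.0075) and did not pass in the other 4 lines, where its changes were -0.35, -0.08, -0.21 and 0.27. Its second probe set gave 1.15 in SCC61 and 0.26 in SCC047.

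RAD51AP1, which helps strand exchange, rose by 1.58 in SCC61 alone among the 6 lines, and its other changes ran between -0.30 and 0.14. RAD51C, which acts in the same pathway, rose in SCC61 (1.38), SCC047 (0.60) and 93VU147T (0.47). RAD54L and RAD54B, motor proteins of the same step, both fell in SCC25 (-0.61 and -0.58) and SQ20B (-0.32 and -0.46) and both rose in SCC61 (0.70 and 1.26) and SCC047 (0.37 and 0.48). They parted in 93VU147T cells. There RAD54L had 7.34, 7.28 and 7.37 with cetuximab and 7.75, 7.69 and 7.63 without it, a fall of 0.36 ± 0.08 (adjusted p = 0.00078), while RAD54B rose by 0.60 ± 0.09 (adjusted p = 5.8e-06).

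The helicase BLM followed the split, at -0.46 in SCC25, -0.45 in SQ20B, 1.24 in SCC61 and 0.56 in SCC047, all past the threshold. RMI1, its partner in dissolving crossed strands, had its largest change in 93VU147T, with 9.19, 9.01 and 9.38 on the cetuximab arrays and 8.19, 8.36 and 8.58 on the controls. All 3 treated arrays lay above all 3 controls (0.82 ± 0.11, adjusted p = 4.1e-07). XRCC3, which forms a complex with RAD51C, fell in SCC25 (-0.49), SQ20B (-0.56) and 93VU147T (-0.29) and rose in SCC61 by only 0.30. PALB2, which links BRCA1 to BRCA2, fell in SQ20B (-0.23) and was called in no other line. EME1, part of a nuclease that cuts joined strands, rose in SCC61 (0.46), and XRCC2 and the nuclease DNA2 rose in SCC61 (0.48 and 0.77) and SCC047 (0.42 and 0.53), DNA2 also in 93VU147T (0.46). XRCC2 was read on a single probe set of a type that can bind related transcripts.

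Fanconi genes gave the largest group median in SCC61, at 1.27 over 6 genes, against 0.73 over the 12 recombination genes. BRIP1, a helicase that binds BRCA1, had 7.53, 7.99 and 7.77 in cetuximab-treated SCC61 cells and 5.29, 5.59 and 5.82 in control cells. It rose 4.60-fold (2.20 ± 0.15, adjusted p = 1.7e-13), and in SCC047 it rose by 0.58. All treated arrays again lay above all controls. FANCL, the ubiquitin ligase of the pathway, had 8.69, 9.04 and 8.89 with cetuximab and 6.81, 6.94 and 7.08 without it in SCC61, a 3.80-fold rise (1.93 ± 0.11, adjusted p = 2.4e-15). FANCI, 1 of the proteins that FANCL marks, rose by 1.60 in SCC61 and 0.45 in SCC047 and fell by 0.41 in SCC25. Its 2 other probe sets gave 0.99 and 1.08 in SCC61 and -0.46 and -0.47 in SCC25, but 0.04 each in SCC047.

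In SQ20B cells FANCL was 1 of only 2 members that rose. Its arrays read 9.92, 9.82 and 9.79 with cetuximab and 9.64, 9.38 and 9.47 in controls, so the groups did not overlap (0.35 ± 0.11, adjusted p = 0.015). This call was lost without cetuximab replicate 1 (adjusted p = 0.069) or control replicate 2 (0.083). FANCM, a translocase that loads the pathway on stalled forks, rose in SCC61 (0.95), SCC047 (0.55) and 93VU147T. In 93VU147T it had 6.75, 6.50 and 6.90 with cetuximab and 5.86, 5.76 and 6.22 without it (0.77 ± 0.14, adjusted p = 4.65e-05). The second brightest FANCM probe set gave 0.49 in SCC61, 0.73 in SCC047 and 0.74 in 93VU147T. Its 2 dimmest gave 0.03 and 0.19 in SCC61, 0.37 and 0.04 in SCC047 and 0.30 and 0.10 in 93VU147T. Untreated SCC61 cells averaged 5.31 for FANCM, close to the array medians. FANCC, a core subunit, rose in SCC61 (0.85) and SCC047 (0.44), but its second brightest probe set gave -0.25 and -0.38 there.

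FANCG, another core subunit, ran against its group in the HPV-positive lines. In SCC047 cells it had 9.03, 8.95 and 8.91 with cetuximab and 9.40, 9.59 and 9.55 without it, a fall of 0.55 ± 0.08 (adjusted p = 1.7e-06). In 93VU147T cells the arrays read 9.50, 9.54 and 9.41 with cetuximab and 10.33, 10.26 and 10.04 without it (-0.73 ± 0.08, adjusted p = 1.6e-08). The groups were apart in both lines. FANCG also fell in SCC25 (-0.51), rose in SCC61 (0.85) and had changes of -0.11 in SQ20B and -0.00 in SCC090.

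**Figure D2:**
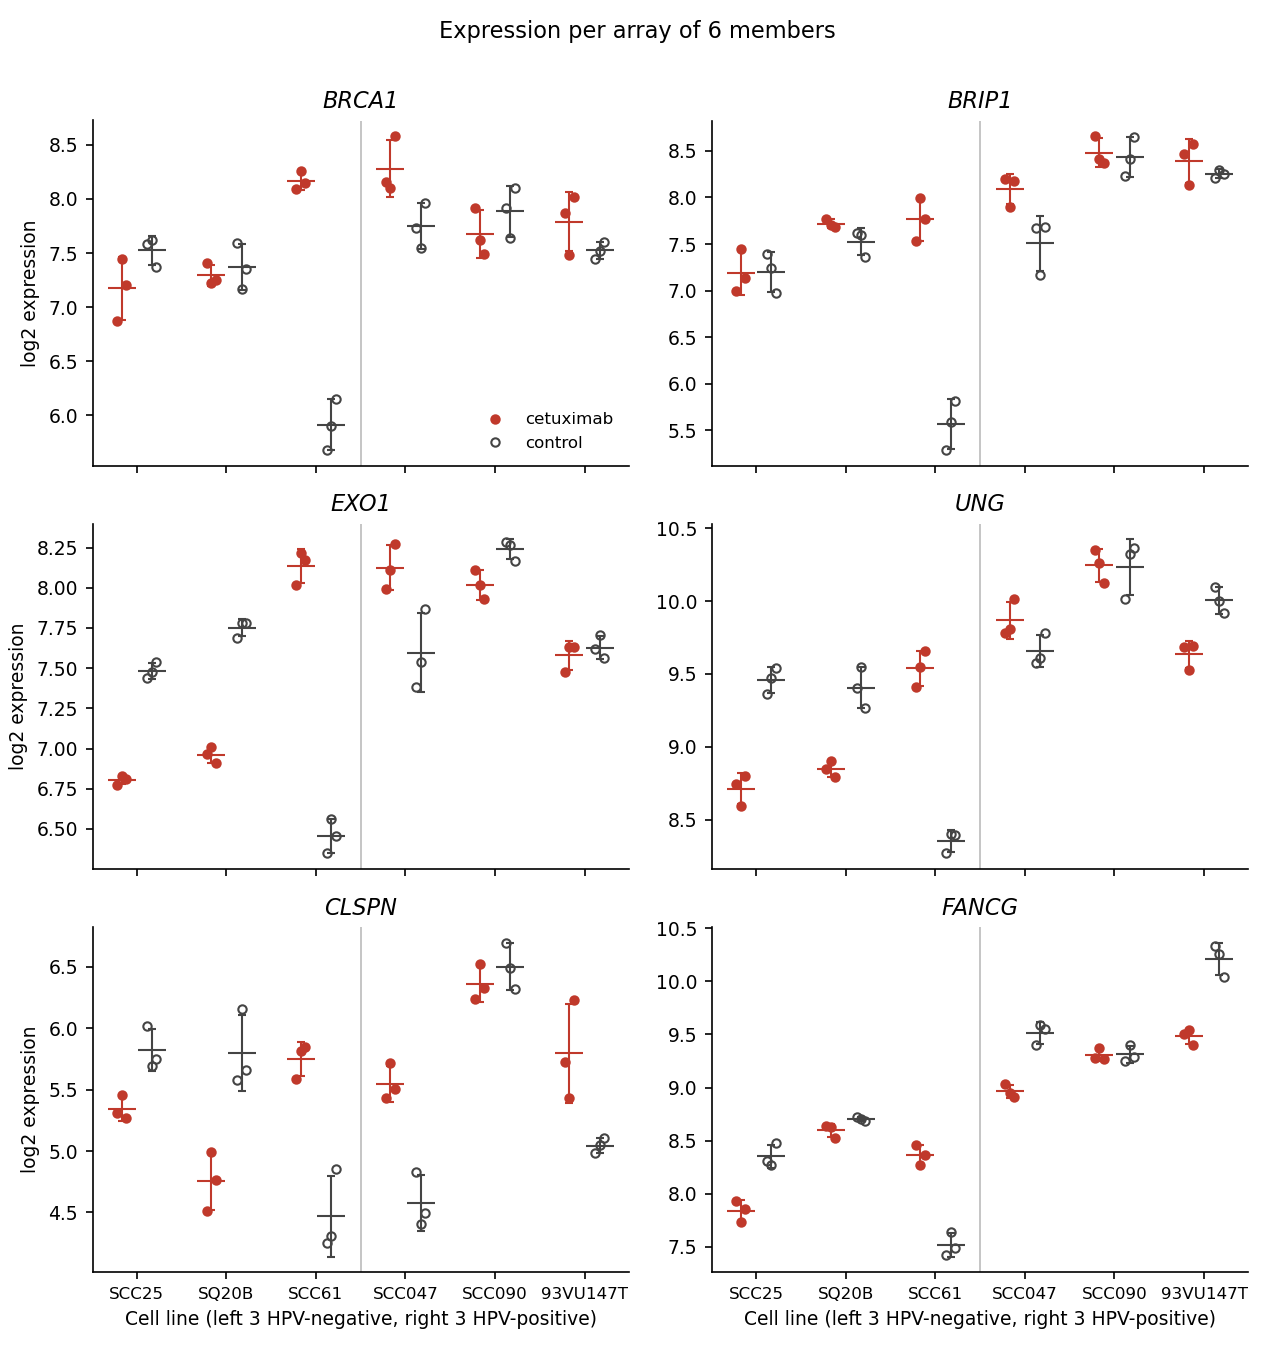
Log2 expression per array (points) with mean and SD (n = 3) for BRCA1, BRIP1, EXO1, UNG, CLSPN and FANCG, cetuximab (red) beside control (open) in 6 lines. BRCA1 reads 8.09 to 8.26 in treated and 5.68 to 6.15 in control SCC61 cells, and FANCG lies lower with cetuximab in SCC047 and 93VU147T.

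The 5 mismatch and base repair genes had the lowest group medians in SCC25 and SQ20B (-0.68 and -0.56, against -0.29 and -0.17 over the 18 recombination and Fanconi genes). All 5 fell in SCC25 and 4 fell in SQ20B, where NEIL3 (-0.11) did not pass. In SCC61 all 5 rose, with a median of 0.98 against 0.90. Medians were 0.31 against 0.44 in SCC047, -0.07 against -0.08 in SCC090 and -0.05 against 0.14 in 93VU147T. These differences between groups of genes were not tested, since genes are not replicates. Outside the members, 16 other mismatch and base repair genes had medians of -0.14 in SCC25 and -0.08 in SQ20B, close to the -0.14 and -0.04 of 20 other recombination and Fanconi genes.

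UNG, which cuts uracil out of DNA, had 8.75, 8.59 and 8.80 in cetuximab-treated SCC25 cells and 9.36, 9.47 and 9.54 in controls. Its fall of 0.75 ± 0.09 was the largest of a member in SCC25 (adjusted p = 8.5e-07). UNG fell as well in SQ20B (-0.56) and rose in SCC61 (1.18). In 93VU147T cells it had 9.69, 9.53 and 9.69 with cetuximab and 10.10, 10.00 and 9.92 without it, again apart (-0.37 ± 0.09, adjusted p = 0.0024).

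MSH6, a subunit of the complex that reads single mismatches, had 8.42, 8.51 and 8.53 with cetuximab and 9.24, 9.24 and 9.11 without it in SCC25 (-0.71 ± 0.08, adjusted p = 2.2e-07). In SQ20B it had 10.02, 10.00 and 9.89 with cetuximab and 10.62, 10.70 and 10.66 without it (-0.69 ± 0.08, adjusted p = 5.7e-08). Both lines showed groups that were clearly apart, and the second brightest MSH6 probe set gave -0.70 and -0.93. The rise in SCC61 was smaller (0.47), and that in SCC047 was 0.31.

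EXO1, the exonuclease that removes the strand with the error and also trims broken ends, had the widest span of the group. It read 6.78, 6.83 and 6.81 with cetuximab and 7.44, 7.47 and 7.54 without it in SCC25 (-0.68 ± 0.09, adjusted p = 1.7e-06). SQ20B arrays read 6.97, 7.01 and 6.91 with cetuximab and 7.69, 7.78 and 7.78 without it (-0.79 ± 0.09, adjusted p = 2.1e-08). In SCC61 the change was 1.68 ± 0.09 the other way, and in SCC047 it was 0.53. PARP1, the sensor of nicks, fell in SCC25 (-0.32) and SQ20B (-0.30) and rose in SCC61 (0.98) and SCC047 (0.32). NEIL3, a glycosylase for oxidised bases, fell in SCC25 (-0.28) and rose in SCC61 (0.80) and 93VU147T (0.36).

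**Figure D3:**
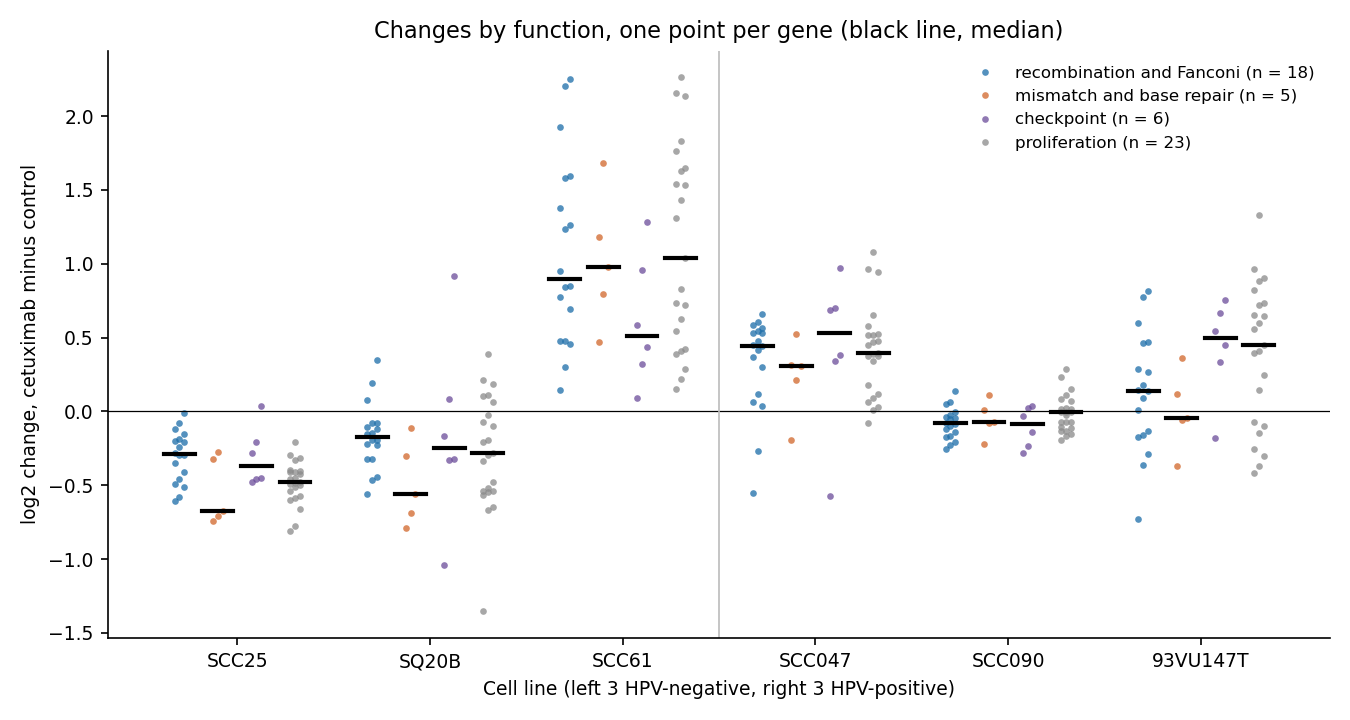
Log2 change with cetuximab per gene in 6 lines for 18 recombination and Fanconi genes, 5 mismatch and base repair genes, 6 checkpoint genes and 23 proliferation genes, with group medians as black lines. Mismatch and base repair medians lie at -0.68 in SCC25 and -0.56 in SQ20B, below those of recombination and Fanconi genes.

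POLQ, the polymerase of an error-prone end joining route, had 7.76, 7.48 and 7.73 in cetuximab-treated SCC047 cells and 6.85, 6.73 and 7.09 in controls (0.77 ± 0.13, adjusted p = 1.4e-05). It rose in SCC61 (0.86) and 93VU147T (0.59) too and fell in SCC25 (-0.38). XRCC4, a scaffold of the classical route, read 7.29, 7.33 and 7.55 with cetuximab and 7.66, 7.90 and 7.69 without it in SCC047, a fall of 0.36 ± 0.11 (adjusted p = 0.011). That call was lost without cetuximab replicate 1 (adjusted p = 0.057), without control replicate 2 (0.082) and with the mean of its 4 probe sets (0.12). In 93VU147T and SCC61 XRCC4 rose, by 0.32 and 0.49.

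Of the checkpoint genes, ATM rose in SQ20B and 93VU147T (0.45). In SQ20B cells it had 8.03, 7.98 and 8.20 with cetuximab and 7.07, 7.45 and 6.95 without it, the largest rise of a member there (1.89-fold, 0.92 ± 0.16, adjusted p = 3.7e-05). The 2 next brightest of its 6 probe sets gave 0.46 and 0.67. ATM was 1 of 2 members not called in SCC61 (0.09, adjusted p = 0.68), PALB2 being the other (0.15, adjusted p = 0.087).

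ATR, its sister kinase, fell in SCC25 (-0.45) and SQ20B (-0.33) and rose in SCC61 (0.96), SCC047 and 93VU147T (0.54). In SCC047 it had 8.66, 8.52 and 8.96 with cetuximab and 8.09, 7.84 and 8.11 without it (0.70 ± 0.12, adjusted p = 2.3e-05). CHEK1, the kinase ATR activates, had the same signs (-0.46, -0.33, 0.59, 0.34 and 0.67 in those 5 lines, each past the threshold). TOPBP1, which switches ATR on, rose in SCC61 (0.44), SCC047 (0.69) and 93VU147T (0.33).

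CLSPN, the adaptor between ATR and CHEK1, was dim but moved widely. In SQ20B it read 4.51, 5.00 and 4.77 with cetuximab and 5.58, 6.16 and 5.66 without it (-1.04 ± 0.17, adjusted p = 1.1e-05). In SCC047 it read 5.43, 5.71 and 5.51 with cetuximab and 4.83, 4.40 and 4.49 without it (0.97 ± 0.17, adjusted p = 2.6e-05). In 93VU147T it read 5.73, 5.44 and 6.23 with cetuximab and 4.98, 5.05 and 5.10 without it (0.75 ± 0.17, adjusted p = 0.0007). None of these groups overlapped, but the treated SQ20B arrays and the SCC047 and 93VU147T controls lay below the array medians or close to them, so the sizes are uncertain. Its second brightest probe set gave -0.14, 0.29 and 0.27 in these lines and passed in none (limma adjusted p = 0.40, 0.054 and 0.070), while the 2 dimmest of its 4 gave -0.50 and -0.61 in SQ20B. CLSPN also rose in SCC61 (1.28), where its second probe set gave 0.02.

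CHEK2, the kinase downstream of ATM, fell in SCC047. Its arrays read 8.86, 8.82 and 8.79 with cetuximab and 9.37, 9.42 and 9.40 without it (-0.57 ± 0.09, adjusted p = 2.3e-06). Untreated SCC047 held by far the highest CHEK2 of the 6 lines, 9.40 against 7.54 to 7.98 in the others. CHEK2 fell in SCC25 (-0.28) and rose in SCC61 (0.32).

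Levels in SCC61 were low before treatment. Untreated SCC61 cells had the lowest level of the 6 lines for 20 of 31 members, as for 18.7% of all genes. BRCA1 averaged 5.91 ± 0.23 there (SD, n = 3) against 7.37 to 7.88 in the other 5 untreated lines, BRIP1 5.56 ± 0.27 against 7.20 to 8.43, and FANCL 6.94 ± 0.13 against 8.45 to 9.82. With cetuximab, 25 members of SCC61 lay within the range of the other 5 untreated lines, 5 above it and 1, XRCC3, below it. Before treatment 11 lay within that range. Over all genes the share within the range was 66.4% with cetuximab and 64.9% without it.

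**Figure D4:**
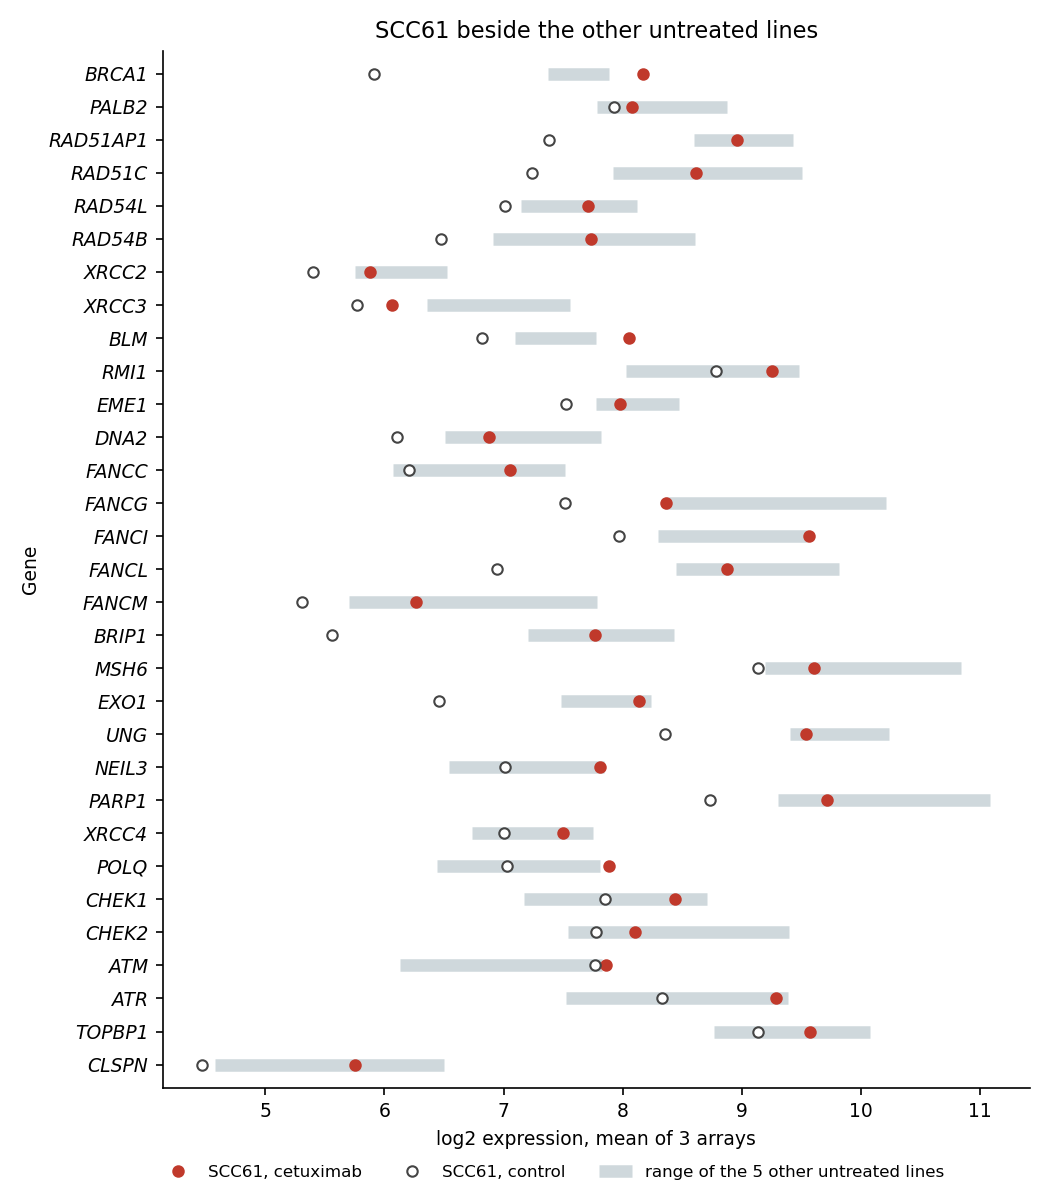
Mean log2 expression (n = 3 arrays) of each member in SCC61 with cetuximab (red) and without it (open), beside the range of the 5 other untreated lines (grey bars). 20 open points lie below their bar, and 25 red points lie within it.

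A contrast chosen after the changes had been seen set SCC61 against the mean of SCC25 and SQ20B. The change was higher in SCC61 for 30 of 31 members, ATM (-0.38, adjusted p = 0.14) being the exception, and lower for 0, while 21.1% of all genes were higher and 17.9% lower. It was largest for BRCA1 (2.47 ± 0.19), EXO1 (2.41 ± 0.11) and BRIP1 (2.11 ± 0.19). SCC61 had the highest change of the 6 lines for 27 members, as for 23% of all genes. A second such contrast set the mean change of SCC047 and 93VU147T against SCC090. It was higher for 18 members and lower for 2 (FANCG and CHEK2), where 14% and 13.8% of all genes passed. In both contrasts arrays and not lines are the unit.

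The proliferation genes moved in the same directions. Of 23 such genes, 21 rose in SCC61 (median 1.04), 16 in SCC047 (0.40) and 13 in 93VU147T (0.45, with 4 lower), while 21 fell in SCC25 (-0.48), 12 fell and 1 rose in SQ20B (-0.28), and 0 were called in SCC090 (-0.01). MKI67, a marker of cycling cells, changed by 1.63 in SCC61, 1.08 in SCC047, 1.33 in 93VU147T, -0.13 in SCC090, 0.11 in SQ20B and -0.29 in SCC25 (adjusted p = 0.045 in the last), and the cell cycle factor FOXM1 by 1.04, 0.65, 0.88, -0.11, -0.10 and -0.32 in the same order. Fewer cycling cells and less RNA per cell cannot be told apart in bulk RNA, and the part of cycling in the members' changes was not tested.

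Repair genes outside the members had smaller medians in SCC61. Members and lists were chosen with earlier results of these data known, so nothing follows from that difference. Of 20 other recombination and Fanconi genes measured, 14 rose and 3 fell in SCC61 (median 0.62), the nuclease GEN1 by 2.42 and the break sensor NBN by 0.83. Of 16 other mismatch and base repair genes 7 rose there and 0 fell (0.20), with 0.98 for the glycosylase OGG1 and 0.77 for MBD4. Nucleotide excision repair, which removes bulky lesions, had 6 of 13 genes higher and 2 lower in SCC61 (0.19) and 0 of 13 called in SCC25 (0.01). CETN2 of that route rose in SCC61 (0.45), SCC047 (0.45) and 93VU147T (0.74), and ERCC1 fell in SQ20B (-0.44), SCC047 (-0.66) and 93VU147T (-0.70). Among 14 other checkpoint genes 7 rose and 4 fell in SCC61 (0.23), among them H2AX, the histone marked at breaks, by 1.35 and CDC25C, a phosphatase that starts mitosis, by 1.03. Of 6 other end joining genes 4 rose in SCC61 (0.52) and 3 fell in SCC25 (-0.23). PRKDC, the kinase of the classical route, rose in SCC61 (0.80), SCC047 (0.81) and 93VU147T (0.35), and the nuclease DCLRE1C rose in SQ20B (0.40), SCC61 (0.49) and SCC047 (0.52).

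By HPV status the changes overlapped for every member. With the line as the unit, 0 members and 0% of all genes passed for the HPV-negative minus the HPV-positive change, with 0 members and 1872 genes at an unadjusted p under 0.05. The members' median difference was -0.02. The HPV-negative changes lay all above the HPV-positive ones for 0 members and all below them for 0, as against 8.66% and 7.08% of all genes. With the array as the unit 6 members were called higher in HPV-negative lines and 8 lower, against 22.3% and 14.9% of all genes.

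Untreated levels were compared next. Members had a median difference of 0.45 (HPV-positive minus HPV-negative), with 25 of 31 above 0, while the median of all genes was 0.01. The Fanconi genes had the highest group median (0.72, all 6 above 0), then mismatch and base repair (0.59), recombination (0.47), end joining (-0.22) and checkpoint genes (-0.31). With the line as the unit 0 members and 0.0152% of all genes passed. FANCG and UNG, the 2 members with an unadjusted p under 0.05, had adjusted p-values of 0.42 and 0.60. Over all genes 1641 had an unadjusted p under 0.05. With the array as the unit 23 members were called higher and 6 lower (31.5% and 26% of all genes).

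**Figure D5:**
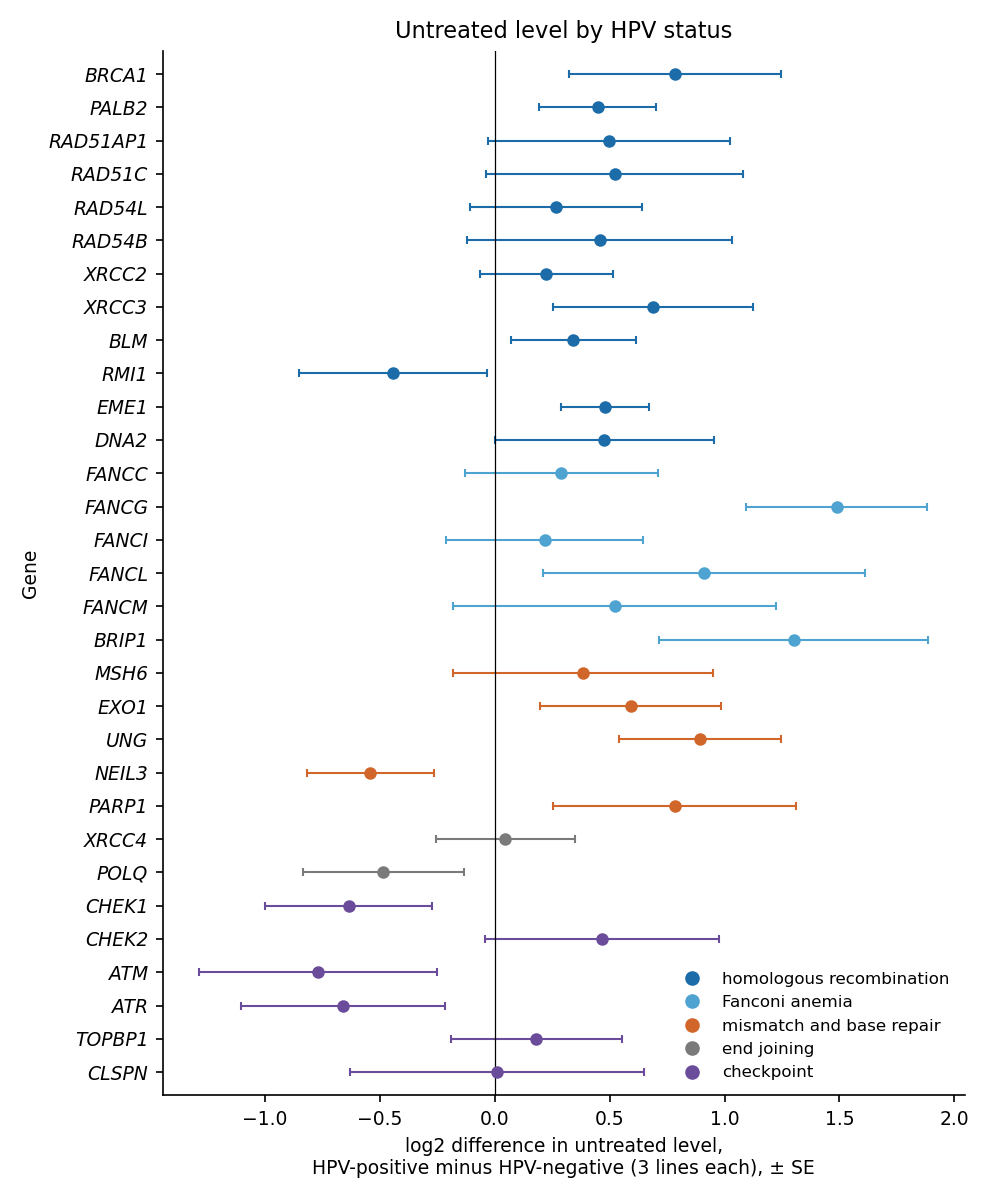
Difference in untreated log2 level, HPV-positive minus HPV-negative lines (3 each), with SE over lines, for the 31 measured members coloured by function. FANCG (1.49) stands farthest to the right and ATM (-0.77) farthest to the left, and no difference passed after adjustment.

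The medians leaned on single lines. Without SCC61 the members' median was 0.12, and without SCC090, which had the highest untreated level for 18 of 31 members, it was 0.18. The share of all genes with their highest untreated level in SCC090 is not given here, so that count has no background beside it. Leaving out any other line gave 0.44 to 0.61. Without SCC61 the Fanconi median was 0.21, with 5 of 6 genes above 0, beside 0.20 for mismatch and base repair and 0.11 for recombination, and without SCC090 these were 0.41, 0.26 and 0.21. The end joining median was -0.00 without 93VU147T. The checkpoint median was -0.07 without SQ20B, -0.09 without 93VU147T, -0.53 without SCC61 and -0.75 without SCC090. In the proliferation list the median was 0.01 with all lines.

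FANCG had the largest difference between HPV-positive and HPV-negative lines. Its means were 9.51, 9.31 and 10.21 in untreated SCC047, SCC090 and 93VU147T cells and 8.35, 8.70 and 7.52 in untreated SCC25, SQ20B and SCC61 cells. Every HPV-positive line was above every HPV-negative line, and the difference was 2.8-fold (1.49 ± 0.39, SE over lines). UNG had 9.66, 10.23 and 10.00 in the HPV-positive lines and 9.46, 9.41 and 8.36 in the HPV-negative lines (0.89 ± 0.35), again without overlap, though SCC047 and SCC25 lay close together. FANCG and UNG were the 2 members with all HPV-positive lines above all HPV-negative ones, as for 7.81% of all genes, and 0 lay all below, as for 6.56%. BRIP1 (1.30 ± 0.59), FANCL (0.91 ± 0.70), BRCA1 (0.78 ± 0.46) and PARP1 (0.78 ± 0.53) came next, with lines that overlapped. At the other end ATM had -0.77 ± 0.52, ATR -0.66 ± 0.44, CHEK1 -0.63 ± 0.36 and NEIL3 -0.54 ± 0.28. For ATM, SCC047 (6.13) and 93VU147T (6.14) were low and SCC090 (7.83) was the highest of the 6.

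SCC1 and HaCaT are given as levels without a test. In cetuximab-treated SCC1 cells 18 members lay above the range of the 3 other treated HPV-negative lines, 3 below and 10 within, where 35.4% of all genes lay above and 45.0% within. UNG averaged 10.34 ± 0.04 (SD, n = 3) there against 8.71 to 9.54, and BRIP1 8.37 ± 0.12 against 7.19 to 7.76. ATM was uneven between SCC1 arrays, at 8.19, 6.32 and 8.12. The 3 SCC1 arrays lie in a scan batch of their own apart from 1 SQ20B control, so line and batch cannot be told apart. Untreated HaCaT cells lay within the range of the 6 untreated lines for 27 of 31 members, as for 70.8% of all genes. BLM (7.98) and FANCI (9.67) were above that range, and RAD54L (6.89) and XRCC3 (5.60) below it. The HaCaT arrays are a scan batch of their own.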

How the data were processed

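The authors deposited log2 expression values for 42 Affymetrix hgu133plus2.0 arrays (54675 probe sets), made with fRMA 1.16.0. Their methods also name pSVA, a batch correction. The sources used here do not give whether these values carry it, so part of a batch effect may already have been removed. Array medians lay between 5.09 and 5.16. The number of arrays limits the precision.

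Probe sets were named through the platform annotation. Of these, 41091 had 1 gene symbol, 1801 had several and were not named, and 11721 were not listed. Each of 19775 genes was read on its brightest single-symbol probe set.

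Changes within a line were fitted with limma 3.58.1 in R 4.3.3 on 12 group means over 36 arrays. Comparisons over lines used 1 value per line. Benjamini-Hochberg adjustment took in every gene, with a threshold of 0.05, and the fit was tested on simulated data. SCC1 and HaCaT entered no test. HPV status was taken from the study's text.

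The members, the gene lists and the promoter words were chosen with earlier results of these data known. Array values are given for members past the threshold without overlap of the arrays, the 3 largest in each direction per line. Means and SEs are given for the 3 largest mean changes each way, and line means for untreated differences whose lines did not overlap. Of each companion list the 2 genes with the largest mean change are named, and other genes named beside them were chosen after their values were seen. The contrasts of SCC61 with SCC25 and SQ20B, and of SCC047 and 93VU147T with SCC090, were added after seeing the data, as was leaving lines out of the medians. Alternatives covered the choice of probe set, normalization, filter, variance trend, minimum size, scan batch, replicate number, unit and left-out arrays or lines.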

Additional observations from a re-analysis of the deposited data

Results flagged for a closer look

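Among 62 sets of 6 line values (the change and the untreated level of each of 31 members), 8 held a line far from the rest, its gap to the nearest line, as a share of the whole range, exceeding Dixon's critical value at the 5% level. That 5% holds for independent sets of normally distributed values. These sets share the same 6 lines, and the 2 values of a member share control arrays, so no excess over chance can be read from the 8. All 5 flagged changes were those of SCC61, with BRCA1 at 2.25 (nearest line 0.53), BRIP1 at 2.20 (0.58), FANCL at 1.93 (0.35), RAD51AP1 at 1.58 (0.14) and EME1 at 0.46 (-0.05). The 3 flagged untreated levels were BRCA1 in SCC61 at 5.91 (nearest line 7.37), CHEK2 in SCC047 at 9.40 (7.98) and TOPBP1 in SCC090 at 10.07 (9.22). The share of all genes that this rule flags is not given, so these counts have no background beside them. SCC61 had the highest change of the 6 lines for 23% of all genes.

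The change differed between lines, in limma's test of the difference with adjustment over all genes, for 30 members between SCC61 and the mean of SCC25 and SQ20B. Of all genes 21.1% were higher and 17.9% lower in that contrast. Between the mean of SCC047 and 93VU147T and SCC090 it differed for 20 members, where 14% of all genes were higher and 13.8% lower. Both contrasts were chosen after the changes had been seen.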

How the results depend on the processing

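Asking also for an absolute log2 difference of at least 0.5 left 6 members called in SCC25 (0 higher and 6 lower, beside 573 and 367 of all 19775 genes), 6 in SQ20B (1 and 5, beside 1681 and 739), 14 in SCC047 (12 and 2, beside 1410 and 1353) and 8 in 93VU147T (7 and 1, beside 1348 and 1125). With the array in place of the line as the unit, 23 members were called for the mean change, 14 for the HPV difference of changes and 29 for the untreated HPV difference, against 0 each by line. Over all genes 4514 were then higher and 4559 lower for the mean change. For the HPV difference of changes 4413 were higher and 2943 lower, and for the untreated HPV difference 6231 and 5147. All 342 other values of the members' counts stayed within 1.5 times the reported count. Leaving out 1 array gave 12 to 16 members in SCC25, 11 to 15 in SQ20B, 28 to 29 in SCC61, 19 to 26 in SCC047 and 13 to 19 in 93VU147T. Counts over all genes with 1 array left out are not given. Values under these settings were also tallied for the members picked by size, as described above. Of these, 779 kept their direction and side of the threshold, 12 no longer passed, 8 passed only under the other setting and 0 turned direction. FANCC was not in this tally, and its second brightest probe set turned direction in SCC61 (-0.25) and SCC047 (-0.38).

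Nothing in the labels says that the replicate numbers pair the arrays, and the main fit did not pair them. Deviations of arrays with the same number correlated between -0.15 and 0.32 within a line. Arrays with different numbers were not compared in this way, so pairing was not tested. With the replicate block 17 members were called in SCC25 (0 higher and 17 lower, beside 1795 and 1517 of all genes), 14 in SQ20B (2 and 12, beside 3720 and 2968), 29 in SCC61 (29 and 0, beside 4884 and 3986), 24 in SCC047 (21 and 3, beside 3487 and 3830), 0 in SCC090 (beside 136 and 217) and 17 in 93VU147T (13 and 4, beside 3194 and 3803), which changed no count by over 1.5 times. With scan batch as a covariate 14 were called in SQ20B, whose control replicate 3 came from another batch. Over all genes 3434 were higher and 2642 lower in SQ20B in that fit.

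Changes in dim members (CLSPN, XRCC2, and FANCM in SCC61) are limited by signal close to background. ATM, XRCC2 and XRCC4 were read on probe sets of a design shared with related transcripts.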
